A study of Mus musculus with 27 samples.

Results

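Switch junctions of 2 PAXX-/- clones of the mouse B-cell line CH12F3 were set against each other, as PAXX-/- clone 1 against PAXX-/- clone 2. The members were chosen by the clone named in the labels and comprised 6 of the 27 samples of the series, 3 libraries of each clone. They held 35501 of 193201 junctions, 20654 in clone 1 and 14847 in clone 2. Both groups were CH12F3 cells that carried PAXX-/- and were stimulated with IL-4 (20 ng/mL), anti-CD40 (1 mg/mL as labelled) and TGFβ (1 ng/mL), with genomic DNA taken after 72 h. XLF-/-PAXX-/- double mutants, which came out of 1 of the PAXX-/- clones according to the study's design text, and WT cells of the same line are used only for side values. The XLF-/- and Ligase4-/- clones of the series, under the same stimulation, serve as side values for the spread between clones. XLF-/- libraries were also added to the fits in 1 alternative setting. Which PAXX-/- clone gave rise to the double mutants is not given in the sources used here. Each group is a single clone, so a difference between the groups belongs to 2 cell lines and not to a genotype. The design text names 3 biological replicates per clone, but nothing ties a library to a replicate number or to a culture, so p-values may measure technical spread only. No RNA or protein was measured, so the loss of PAXX and the B-cell identity could not be checked here.

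PAXX is a factor of classical non-homologous end joining, the pathway that rejoins DNA double-strand breaks through Ku, XRCC4 and DNA ligase 4. Class switch recombination uses this pathway: the deaminase AID introduces breaks in the Sμ switch region and in a downstream acceptor region, here Sα, and their joining deletes the DNA between them. AID acts on cytosines, and the palindrome AGCT, which presents a target on each strand, is a known hotspot for it. LAM-HTGTS, in which linear amplification of genomic DNA is followed by high-throughput sequencing of translocations, reads from a fixed primer site, the bait, into whatever DNA has been joined to it, the prey. The bait here lies at the Iμ promoter side of Sμ on chromosome 12.

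The libraries held 5984, 7147 and 7523 junctions in clone 1 and 4334, 5070 and 5443 in clone 2. In each clone library 1 came from the first of the 2 sequencing runs and libraries 2 and 3 from the second, so every comparison could be repeated within a run. Libraries of the same clone shared 3.77% to 7.0% of their exact junctions, and libraries of different clones 3.65% to 7.26%, so none of these pairs looked like repeats of 1 library. The highest pair joined different clones of the second run, clone 1 library 2 and clone 2 library 3 (7.26%). Clone 1 library 2 also shared 6.63% with clone 2 library 2. For clone 1 library 3 the same 2 values were 5.32% and 4.77%. Intervals of a share in pooled reads are 95% intervals by the exact Clopper-Pearson method and cover counting error only. Because 3 libraries stood against 3, the exact two-sided permutation test over 20 arrangements could not give a p below 0.1. Within runs the 12 possible arrangements could not give one below 0.167. The strongest statement for a single measure is therefore that the libraries of the clones did not overlap.

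The bait sequence itself told the clones apart. Positions are counted from 1 at chr12:114664913 (mm9) in reading direction, towards lower coordinates, so the reads run along the minus strand of the assembly. The majority base of clone 1 reads at positions 4 to 134 (chr12:114664780-114664910) gave the first line, shown because all substitutions refer to it. Capitals mark the 2 AGCT motifs, at positions 68 to 71 and 89 to 92. The other lines give positions 50 to 90 (chr12:114664824-114664864) in clone 1 and in the 2 forms found in clone 2, with capitals at positions 68 to 71.
Bait, majority base of clone 1: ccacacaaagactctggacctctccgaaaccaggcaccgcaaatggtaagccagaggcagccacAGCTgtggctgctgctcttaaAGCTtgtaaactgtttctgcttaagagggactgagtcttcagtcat
Clone 1: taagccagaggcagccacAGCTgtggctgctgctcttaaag
Clone 2, first form: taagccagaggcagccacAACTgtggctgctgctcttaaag
Clone 2, second form: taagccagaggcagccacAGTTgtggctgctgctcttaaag

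A substitution is written as the majority base, the bait position and the base found. Of 120 bait positions covered by at least 200 reads in both clones, none carried another base in 5% or more of the reads of clone 1, and 2 did so in clone 2. G69A was present in 1.21%, 2.71% and 1.79% of the covering reads in the libraries of clone 1, against 51.5%, 51.4% and 50.0% in clone 2. C70T was present in 0.543%, 1.35% and 0.441% in clone 1, against 40.2%, 40.1% and 39.8% in clone 2. Both lie in the first AGCT motif, at chr12:114664845-114664845 and chr12:114664844-114664844. All libraries of a clone lay close together and the clones were far apart, which is a description, since the positions were picked by this share. Among the positions just below the threshold, the largest share was 2.48% in clone 1 (G90A, in the second AGCT motif) and 2.27% in clone 2 (G81A). G81A was present in 2.06% of clone 1 reads and 2.27% of clone 2 reads, and G107A in 2.33% and 2.25%. The median over all substitutions was 0.0688% in clone 1 and 0.0725% in clone 2. WT carried G69A in 1.49% and C70T in 0.502% of covering reads. Within clone 1, G69A and C70T were most frequent in library 2, which also shared the most junctions with the second-run libraries of clone 2. Whether reads of clone 2 were carried over into that library was not tested.

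**Figure D1:**
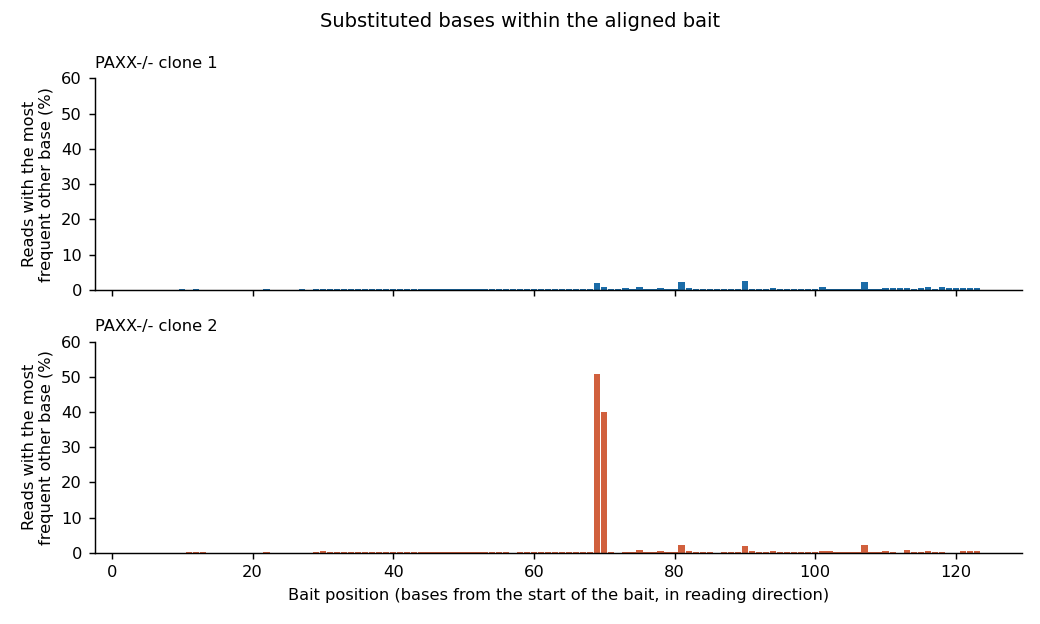
Share of reads (%) that carry the most frequent other base at each bait position in PAXX-/- clone 1 (top) and PAXX-/- clone 2 (bottom), pooled over 3 libraries. Clone 1 stays at or under 2.48% at every position drawn, and clone 2 reaches 50.9% at position 69 and 40.0% at position 70.

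The low share of G69A in clone 1 was not the same in all reads. It was 5.88% (89 of 1513 reads, 4.75% to 7.19%) where the bait alignment ended 5 to 9 bases past the position, 2.16% (57 of 2636) at 10 to 19 bases and 1.00% (38 of 3796) at 20 bases or more. In clone 2 the same classes gave 59.9%, 58.8% and 54.4%. G81A, which neither clone carried as a main base, was likewise more frequent close to the bait end, at 4.68% against 1.79% at 20 bases or more in clone 1 and at 4.86% against 1.30% in clone 2. C70T in clone 1 showed no such rise, with 0.840% (11 of 1310 reads) at 5 to 9 bases, 1.07% at 10 to 19 bases and 0.876% at 20 bases or more. The cause of the rise of G69A and G81A near the junction was not tested.

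In clone 2 the substitutions lay on different molecules. Among 5910 reads whose bait alignment reached position 75 or later, so that both positions were read with bases to spare, 3306 carried A69 with the unchanged C at position 70, 2479 carried T70 with the unchanged G at position 69, and 18 carried both. The A69 form made up 56.6%, 56.1% and 55.3% of these reads in the libraries, and the T70 form 41.6%, 42.1% and 42.1%. A further 1.8% carried neither. In clone 1, 97.2% of 7469 such reads carried neither, 1.90% carried A69 and 0.924% carried T70. Clone 2 thus held 2 bait forms that were nearly exclusive of each other, whereas the reads of clone 1 were nearly all of 1 form. Whether the forms are the chromosome 12 homologues of one cell or 2 cell populations cannot be told apart from these reads.

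The forms of clone 2 joined to different parts of Sα. The Sα window was chr12:114489501-114509500, and its core, the shortest interval with 90% of Sα junctions, was chr12:114496668-114502828. Distances are counted from the bait-side edge of the core, away from the bait, for deletional junctions, the orientation that removes the DNA in between. The median distance of A69 reads was 2032.5, 2037 and 2022 bp in the libraries, and that of T70 reads 3682, 3833 and 3737 bp. The medians of the forms did not overlap. Their mean difference was -1720 bp ± 73.4 (SD over libraries, n = 3), A69 being nearer to the bait in 3 of 3 libraries. An exact paired test over 3 libraries gave p = 0.25, the smallest it can give. Clone 1 reads that carried neither substitution lay between them, with medians of 2761, 2741 and 2730 bp.

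The difference had a step. T70 reads began at about 2750 bp, the first 250 bp interval with over 5% of them, which corresponds to position 114500078 on chromosome 12. This step was chosen after the profile was seen. Before it lay 80.2%, 79.9% and 79.4% of deletional Sα junctions of the A69 form, but 0.722%, 1.51% and 1.18% of those of the T70 form. In counts, these were 1450 of 1817 junctions of A69 and 13 of 1097 of T70. Read the other way, A69 made up 99.5%, 98.9% and 99.1% of the junctions of both forms before the step and 25.7%, 25.2% and 25.1% of those beyond it. The stretch before the step was thus one that the T70 form almost never joined to. In all reads, 50.4%, 51.3% and 51.2% of deletional Sα junctions of clone 1 lay before the step, against 50.0%, 48.6% and 45.8% in clone 2 and 51.2% to 52.2% in WT. The clones differed by 2.84 points on average and did not overlap, though in the first run they lay close, at 50.4% against 50.0%. Because the step was set on reads of clone 2, this difference is a description and is given without a p.

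**Figure D2:**
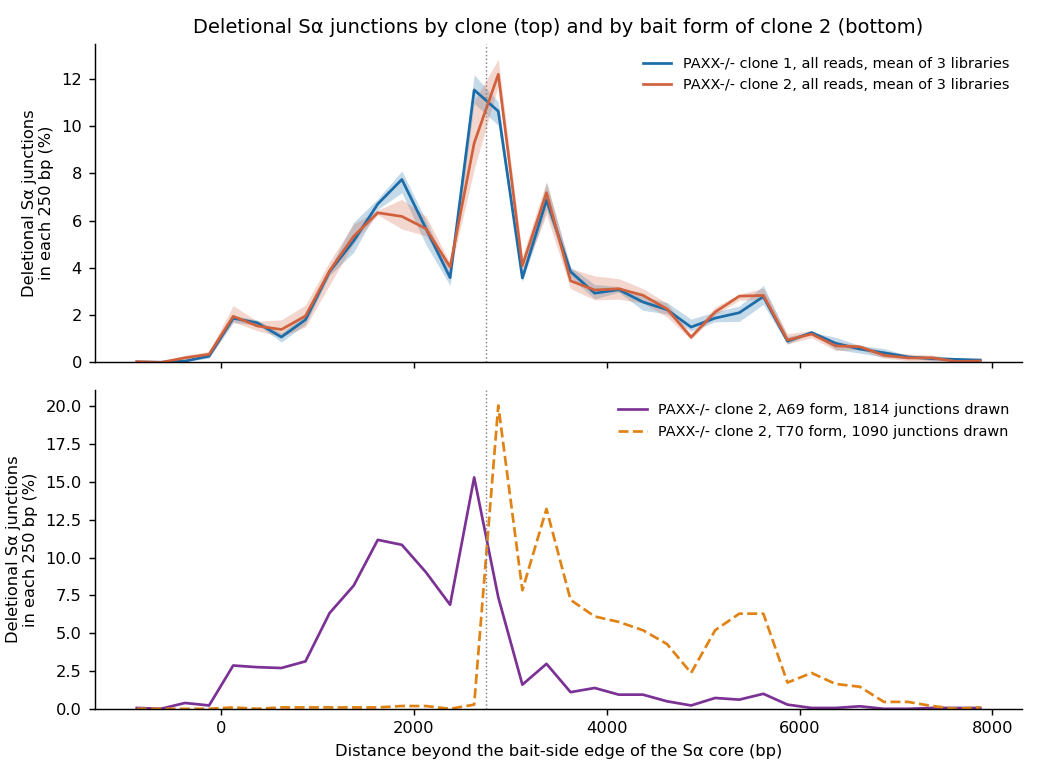
Share (%) of deletional Sα junctions in each 250 bp by distance beyond the bait-side edge of the Sα core (bp). Top, PAXX-/- clone 1 and PAXX-/- clone 2, mean of 3 libraries with a band from the lowest to the highest; bottom, reads of clone 2 with A69 (solid) and with T70 (dashed), for bait ends at 75 or later. The clones run close together, while T70 is near 0 up to the dotted line at 2750 bp and A69 holds 79.8% of its junctions there.

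Bins of 250 bp are given next. Of the 69 bins with any such read, 18 had a mean of at least 10 junctions over the libraries of both forms, and all 18 (100%) passed a limma fit with the library as a term (Benjamini-Hochberg adjusted p under 0.05). Of these, 14 met the minimum only through the form in which they were high. The count of 18 is therefore a description, and those 14 bins are given as values without a p. The other 4, which met the minimum in each form, lay within chr12:114499251-114500250. The 9 bins higher in A69 were those from 114500001 upwards, the first of which holds the step, and the 9 lower in A69 were those up to 114500000. The bin chr12:114500251-114500500 held 57, 84 and 94 junctions of A69, or 11.6%, 12.4% and 13.5% of its Sα junctions, and 0, 1 and 0 of T70. The bin chr12:114501501-114501750 held 34, 49 and 47 junctions of A69 and none of 1133 of T70, which allows a share of up to 0.265%. On the far side, chr12:114497501-114497750 held 0.406%, 0.741% and 0.576% of A69 junctions and 4.96%, 5.08% and 5.02% of T70 junctions. The bin chr12:114499751-114500000 was the first to lie wholly beyond the step and 1 of the 4. It held 4.06%, 4.15% and 4.46% of A69 and 17.4%, 13.6% and 17.1% of T70 junctions (log2 difference -1.90, SE 0.16). Because the step was set on the T70 profile of these same reads, this difference is also a description and is given without a p. In chr12:114498751-114499000 the libraries of T70 spread widely, with 1.77%, 3.63% and 9.36%, against 1.22%, 1.33% and 1.01% of A69.

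Other properties of the forms were compared in the same reads. Junctions outside the Sα core made up 1.35% ± 0.0640 of A69 Sα junctions and 5.51% ± 1.10 of T70 Sα junctions (SD, n = 3 libraries each), lower in A69 in 3 of 3 libraries. Direct joins made up 17.7% ± 1.01 of A69 and 18.8% ± 3.06 of T70, microhomology 54.5% ± 1.75 and 54.2% ± 1.30, and insertions 27.8% ± 1.13 and 27.0% ± 4.13. These 3 shares did not keep one sign over the libraries. Microhomologies were longer in A69, at 2.61 ± 0.0725 bases, than in T70, at 2.35 ± 0.115 bases, in 3 of 3 libraries (exact paired p = 0.25). In single libraries the difference in the insertion share ran between -1.53 and 4.23 points, so a difference of that size could not be told from the spread.

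The forms also reached different classes of prey. A69 made up 62.9%, 61.8% and 60.2% of reads joined deletionally to Sα, against 44.4%, 43.0% and 44.9% of reads joined deletionally within the bait window (10 kb to each side of the bait). The difference averaged 17.5 points (15.3 to 18.7 in single libraries). Reads joined in inversion within the bait window were A69 in 75%, 63.6% and 68.9%. On other chromosomes A69 made up 56.5%, 55.3% and 54.8%, below its share of deletional Sα reads in each library. Counted per form, 56.2% ± 4.17 of A69 reads and 45.4% ± 4.37 of T70 reads reached Sα, and 23.8% ± 3.25 and 35.4% ± 3.05 stayed in the bait window. Few junctions fell between the Sα window and the bait window, but 28 of 29 were A69 and 1 was T70.

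**Figure D3:**
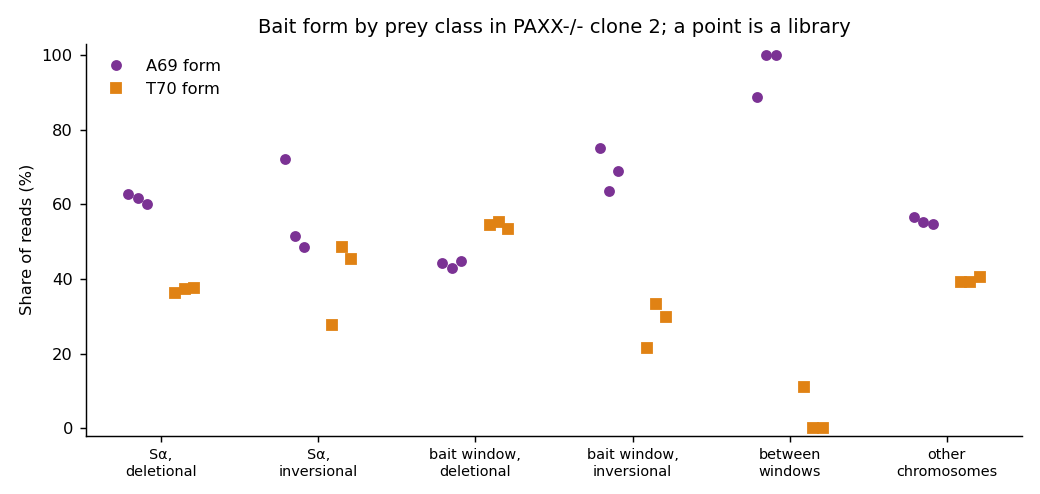
Share of reads (%) of PAXX-/- clone 2 that carried A69 (circles) or T70 (squares) by prey class, for bait ends at 75 or later; a point is 1 of 3 libraries. A69 leads among deletional Sα reads and on other chromosomes, and T70 leads among deletional reads of the bait window (53.3% to 55.3%). Inversional Sα reads spread widely, with A69 at 57.4% ± 12.9 (SD, n = 3). Between the windows T70 is at 0 in 2 of 3 libraries.

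The double mutants carried C70T in 37.8% (clone 1) and 42.6% (clone 2) of covering reads but G69A in 0.297% and 0.289%. Their T70 reads were also scarce before the step, with 17 of 1737 (0.979%) in double mutant clone 1 and 95 of 1879 (5.06%) in double mutant clone 2, against 55.5% and 55.8% of their reads with neither substitution. Between the windows T70 made up 10 of 119 and 9 of 143 reads of the double mutants.

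Bait ends, the last bait position aligned in a read, differed between the clones around the substituted positions. Of 71 bait ends with a mean of at least 10 Sα junctions a library, 9 (12.7%) passed a limma fit with the run as a term at an adjusted p under 0.05, of which 6 were higher and 3 lower in clone 1. The minimum was met in each clone by 67 bait ends, of which 6 passed. Bait ends 70, 71 and 73 met it only through clone 1, where they were high, and are given as values without a p. In clone 2 they held 7, 6 and 6 junctions (bait end 70), 1, 4 and 7 (bait end 71) and 0, 1 and 7 (bait end 73). Bait end 72 held 2.80%, 2.83% and 2.89% of Sα junctions in clone 1, against 0.351%, 0.403% and 0.818% in clone 2 (log2 difference 2.48, SE 0.24, adjusted p = 6.0e-06). Bait end 71 held 1.67%, 1.21% and 1.35% in clone 1, against 0.0585%, 0.161% and 0.260% in clone 2. Bait ends 70 and 73, with 0.989% and 0.822% on average in clone 1 against 0.292% and 0.10% in clone 2, lay in the same direction. Bait end 68 was lower in clone 1, at 4.43%, 4.45% and 4.71%, against 7.08%, 6.21% and 6.81% in clone 2 (log2 difference -0.56, SE 0.09, adjusted p = 0.00036). Bait end 69 was also lower in clone 1, at 3.51%, 3.13% and 2.91%, against 5.32%, 4.07% and 4.65% in clone 2 (log2 difference -0.55, SE 0.10, adjusted p = 0.0012). The libraries of the clones did not overlap at any of these 6 positions. Away from the motif, bait end 59 was higher in clone 1, at 2.98%, 3.46% and 3.15%, against 1.99%, 1.94% and 2.42% in clone 2 (adjusted p = 0.0041), and bait end 61 was higher as well (adjusted p = 0.028). Bait end 83 was lower in clone 1, at 1.77%, 1.77% and 1.73%, against 2.57%, 2.30% and 2.27% in clone 2 (adjusted p = 0.033). Without a trend in the variance 4 bait ends passed, 70 to 73, of which only bait end 72 met the minimum in each clone. WT held 3.50% ± 0.173 at bait end 72 and 6.14% ± 0.411 at bait end 68 (SD, n = 3).

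**Figure D4:**
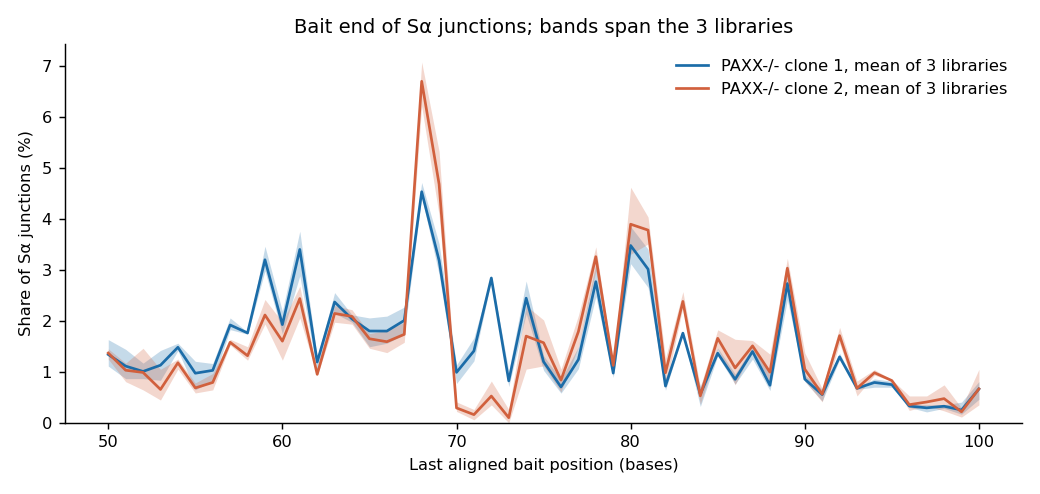
Share (%) of Sα junctions by the last aligned bait position, 50 to 100, as the mean of 3 libraries with a band from the lowest to the highest, in PAXX-/- clone 1 and PAXX-/- clone 2. Positions 70 to 73 together hold 6.06% in clone 1 and 1.08% in clone 2, and clone 2 is higher at 68 and 69.

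A base that differs from the aligner's reference close to the end of the bait can end the alignment and leave the following bases as an apparent insertion, so bait alignments were also extended through A69 and T70. Insertions made up 30.3%, 28.2% and 30.6% of Sα junctions with bait end 69 in clone 1, against 57.1%, 56.4% and 58.4% in clone 2. In clone 2 the inserted bases after bait end 69 began with T in 92.9% of cases, and after T alone (39 of 182) the most frequent were TTG, TT and TTGT, with 21, 20 and 18 cases. After bait end 68 the first inserted base was A in 72.3% of cases in clone 1 and 91.5% in clone 2. Inserted A was also the most frequent first base after bait end 80, with 86.1% in clone 1 and 84.4% in clone 2. Neither clone carried A as a main base at the next position, 81. G81A was still present there in 2.06% of clone 1 reads and 2.27% of clone 2 reads, so bait end 80 was not free of substitution. Whether the inserted A came from G81A was not tested. The extension turned 202 of 3056 Sα insertions (6.61%) of clone 1 and 292 of 2198 (13.3%) of clone 2 into other joint types. It allowed A69 and T70 in both clones and acted only on junctions with an insertion. Bait end 68 gave 161 of the 202 in clone 1 and 190 of the 292 in clone 2. How many of these, above all in clone 1, matched by coincidence was not tested. After the extension, bait ends 61, 68, 69, 70 and 73 no longer passed, while 59, 71, 72 and 83 did. Bait end 61, away from the motif, kept its log2 difference of 0.47 (adjusted p = 0.052). Bait ends 68 and 69 then differed by -0.35 and -0.17 on the log2 scale (adjusted p = 0.14 and 0.36), and 70 and 73 by 0.62 and 0.48 (adjusted p = 0.052 and 0.25). Bait end 71 differed by 1.02 (adjusted p = 0.0074) and bait end 72 by 0.79 (adjusted p = 0.00071).

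The 11 measures covered joint structure at Sα, bait length and prey shares, and 3 of them (27.3%) did not overlap between the clones. Microhomology, the sharing of bases by bait and prey, was found in 57.0%, 54.2% and 54.0% of Sα junctions of clone 1, against 53.5%, 50.6% and 51.2% of clone 2. The difference was 3.32 points (SE 1.28, exact permutation p = 0.1, adjusted p = 0.367 over 11 measures), and 3.50 and 3.23 points within the runs. Insertions were found in 26.5%, 28.3% and 28.7% in clone 1, against 29.1%, 33.3% and 32.6% in clone 2, a difference of -3.85 points (SE 1.47, exact permutation p = 0.1, adjusted p = 0.367). The mean aligned bait length was 66.7, 65.9 and 66.5 bases in clone 1, against 67.6, 69.01 and 67.9 bases in clone 2 (difference -1.84, exact permutation p = 0.1, adjusted p = 0.367). With the bait extended, bait length still differed by -1.93 bases without overlap. Bait ends before 68 made up 46.3% of Sα junctions on average in clone 1 and 40.8% in clone 2, without overlap. Those at 75 or later made up 37.5% and 45.0%, also without overlap. How far the microhomology and insertion differences held depended on how the substituted motif was treated. With the bait extended, the microhomology difference was 1.41 points and the insertion difference -1.43 points, and both overlapped. Among bait ends at 75 or later, with the motif inside the aligned bait, they were -1.25 and 0.406 points, and both overlapped. Among bait ends before position 68, with the motif outside it, they were 2.61 points without overlap and -2.56 points with overlap. Among bait ends before position 69 they were 4.41 and -4.79 points, and with substituted reads left out 4.93 and -6.78 points, all without overlap. Bait ends before 69 include bait end 68, where insertions made up 58.1% of Sα junctions in clone 1 and 64.2% in clone 2. That setting was therefore not free of the substituted motif. WT had microhomology in 54.3% ± 0.960 and insertions in 27.4% ± 1.06 (SD, n = 3).

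**Figure D5:**
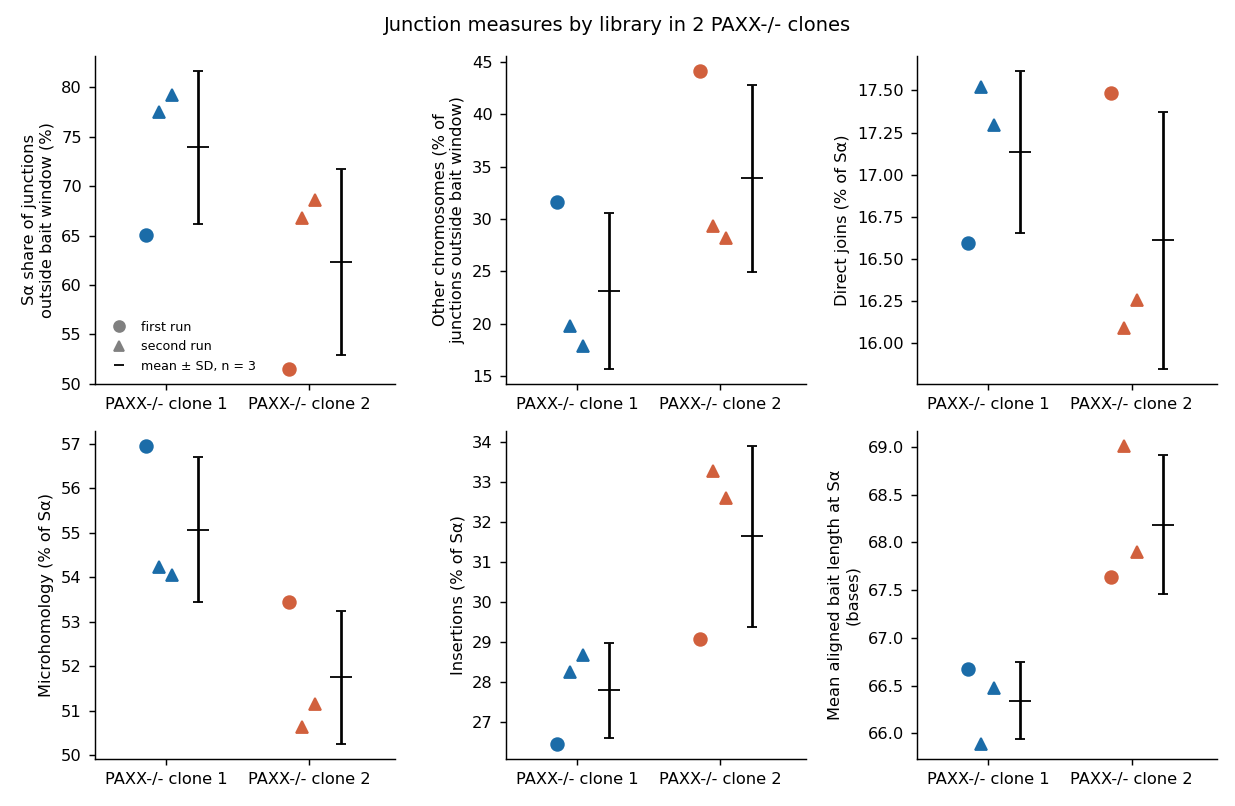
Values of 6 measures by library in PAXX-/- clone 1 and PAXX-/- clone 2, in percent or bases as labelled on each axis; circles are the first run, triangles the second, bars the mean ± SD of 3 libraries. Microhomology, insertions and bait length do not overlap between the clones, and for Sα and other chromosomes the runs differ within each clone.

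By length, 4 of 19 joint classes (21.1%) passed the limma fit. Insertions of 11 to 20 bases made up 1.77%, 1.72% and 2.19% of Sα junctions in clone 1, against 2.51%, 3.10% and 3.05% in clone 2 (log2 difference -0.61, SE 0.11, adjusted p = 2.1e-05). Insertions of over 20 bases made up 2.55%, 3.11% and 2.91% in clone 1, against 2.98%, 4.23% and 4.72% in clone 2 (log2 difference -0.46, SE 0.10, adjusted p = 0.00012). The libraries of the clones overlapped in this class (exact permutation p = 0.2). Insertions of 3 bases were also lower in clone 1, at 3.72%, 3.69% and 3.78%, against 4.33%, 4.60% and 4.35% in clone 2 (adjusted p = 0.024). Microhomology of 1 base was higher in clone 1, at 20.4%, 18.2% and 19.5%, against 17.8%, 16.3% and 17.0% in clone 2 (log2 difference 0.18, SE 0.05, adjusted p = 0.0016). The 2 classes of long insertions still passed with the bait extended, with the same log2 differences, and microhomology of 1 base and insertions of 3 bases did not. Without clone 1 library 2 or without clone 2 library 2, 2 classes passed, and without a trend in the variance 1 did. Direct joins, the product most often tied to classical end joining, made up 16.6%, 17.5% and 17.3% in clone 1, against 17.5%, 16.1% and 16.3% in clone 2, and the sign of the difference changed between the runs.

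The Sα profiles of whole clones were close. Of 28 bins with enough junctions, 2 (7.14%) passed. The bin chr12:114500001-114500250, which the step divides, held 12.7%, 12.7% and 12.3% of Sα junctions in clone 1, against 10.7%, 9.68% and 9.78% in clone 2 (log2 difference 0.32, SE 0.04, adjusted p = 0.0046). The bin chr12:114499501-114499750 was lower in clone 1, at 5.25%, 5.11% and 5.36%, against 5.91%, 6.61% and 6.55% in clone 2 (log2 difference -0.28, SE 0.06, adjusted p = 0.046). Neither bin passed without clone 1 library 2, without clone 1 library 3 or without a trend in the variance, 1 bin passed without clone 2 library 3, and 4 did without clone 2 library 2. The share outside the core was 3.78% ± 0.295 in clone 1 and 3.81% ± 0.201 in clone 2, and the deletional share 96.9% ± 0.174 and 96.8% ± 0.478 (SD, n = 3 each).

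Prey classes differed between the clones in both runs, but the runs differed as well. Sα received 65.1%, 77.5% and 79.2% of junctions outside the bait window in clone 1, against 51.5%, 66.8% and 68.6% in clone 2. Library 1, from the first run, was lowest in each clone, so the pooled values overlapped (difference 11.6 points, exact permutation p = 0.3, adjusted p = 0.367). Within the runs the difference was 13.6 and 10.6 points, higher in clone 1 both times (exact permutation within runs p = 0.167, the smallest possible). Other chromosomes received 31.6%, 19.8% and 17.9% in clone 1, against 44.1%, 29.4% and 28.2% in clone 2, or -12.5 and -9.89 points within the runs. WT received 70.9% ± 1.37 at Sα and 24.7% ± 1.59 on other chromosomes, in another run (SD, n = 3). The same difference in the Sα share, clone 1 minus clone 2, was 18.1 points between the XLF-/- clones, -5.67 between the double mutants and -0.407 between the Ligase4-/- clones. The Ligase4-/- clones had no run in common, so for them clone and run cannot be told apart. Clones of 1 genotype elsewhere in the series thus differed by less and by more than the PAXX-/- clones did.

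Within the bait window, deletional junctions over 3 kb from the bait made up 1.36%, 1.65% and 1.58% of those on the Sα side of it in clone 1, against 2.19%, 2.17% and 1.74% in clone 2, without overlap (exact permutation p = 0.1), and 0.660% ± 0.10 in WT. On other chromosomes, joints with an insertion of over 20 bases made up 30.9%, 17.4% and 13.0% in clone 1, against 15.1%, 20.2% and 16.9% in clone 2. Library 1 of clone 1 stood above the other 5 there.

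The densest sites outside chromosome 12 held junctions of both clones. Of 6154 windows of 10 kb on other chromosomes with any junction, 19 held 5 or more. The densest, chr14:32420001-32430000, held 28, 42 and 40 junctions in clone 1 and 28, 34 and 41 in clone 2, or 53.3 and 69.4 per 10000 junctions. The window chr1:20660001-20670000 held 16 junctions in clone 1 and 18 in clone 2. The window chr8:125950001-125960000 held 9, 6 and 8 in clone 1, against 3, 1 and 2 in clone 2, without overlap. Between the Sα and bait windows, chr12:114600001-114610000 held 26 junctions in clone 1 and 38 in clone 2, the most of any 10 kb there. Genes are not named for these windows, because an mm9 annotation was not used here.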

How the data were processed

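Each deposited table holds the junctions of 1 clone, a line per junction, with the read's bases and with bait and prey coordinates on the read and on mm9. Bowtie2 and mm9 are named in the submitters' processing notes, and the sources used here give no further step by the authors. A library column separated the libraries, which were numbered by name, and the read names gave the run. No other value columns were left unused.

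The values used are positions and read bases, not counts made by the authors. The number of read bases shared by both alignments defined microhomology (above 0), direct joins (0) and insertions (below 0). A bait base was read from the sequence where the bait alignment held no gap (0.890% held one). Shares per library were compared by exact two-sided permutation, with Benjamini-Hochberg adjustment over 11 measures. Bait ends, 250 bp bins and joint classes were fitted as log2((junctions + 0.5) per 1000 Sα junctions) with limma 3.58.1 (R 4.3.3; lmFit, eBayes with trend), with a minimum mean of 10 junctions a library, the run as a term and Benjamini-Hochberg adjustment over each family. The fit of the bait forms, with the library as a term, and the 2750 bp step were chosen after seeing the data. The measures, lists and members were chosen with earlier results of these data known. Features named are the substituted positions and, among those that passed, the largest changes in each direction, with the 3 densest windows on other chromosomes. The tests were tried on simulated data. Alternatives were other filters, pseudocounts and windows, junctions collapsed or thinned, substituted reads left out, the bait extended, each run alone and each library left out. Python 3.11.15, numpy 2.4.6, pandas 2.3.3, scipy 1.17.1 and matplotlib 3.10.9 were used.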

Additional observations from a re-analysis of the deposited data

Results flagged for a closer look

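The share of T70 reads moved in opposite directions between prey classes in PAXX-/- clone 2 and in the double mutants. Among bait ends at 75 to 79, T70 made up 37.5%, 39.0% and 42.0% of deletional Sα reads of PAXX-/- clone 2, against 49.3%, 56.6% and 55.9% of its deletional bait-window reads. The difference averaged -14.4 points ± 2.95 in PAXX-/- clone 2 (SD, n = 3) and 27.2 points ± 3.84 in the double mutants (SD, n = 6 libraries of 2 clones), where it lay between 22.1 and 31.7. All libraries of PAXX-/- clone 2 moved one way and all of the double mutants the other. Libraries of the same clone are not separate clones, so this contrast is a description and is given without a p. It is given for bait ends at 75 to 79 only. The comparison was chosen after seeing the data, and the double mutants came from another run and held no A69 form. Groups of 3 libraries are too small for a check of single outlying libraries.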

How the results depend on the processing

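Libraries can be compared only as 3 against 3, each group is 1 clone, and rare prey classes rest on few junctions. No paired analysis was possible because the libraries in the files carry no replicate numbers; the run was used as a term instead. Values below are clone 1 minus clone 2, in percentage points or bases, and their causes were not tested unless the setting shows it. Across the alternatives, 152 values kept their direction and side of the threshold or of non-overlap (counts within 1.5 times), 21 were weaker, 32 stronger, 19 reversed and 3 moved beyond the spread.

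The Sα share outside the bait window, the share on other chromosomes and the share in the bait window no longer overlapped without gaps over 20 bases (12.1, -11.2 and 2.73), among bait ends before the first substituted position (17.0, -16.2 and 4.48), with substituted reads left out (17.9, -16.8 and 4.49) and within the second run (10.6, -9.89 and 2.00). Leaving out substituted reads removes most long bait ends of clone 2 and also gave 1.86 for the direct share, 0.0880 for microhomology length and 12.2 for bait length. Both settings kept microhomology and insertions apart (4.41 and -4.79 before the first substituted position, 4.93 and -6.78 with substituted reads left out). The first of them still held bait end 68, where 64.2% of Sα junctions of clone 2 had an insertion, with A as the first base in 91.5% of these. The second left clone 2 with a mean bait length of 53.9 bases, against 66.2 in clone 1. Neither setting was therefore free of the substituted motif. Among bait ends before the first substituted position microhomology length differed by -0.0918 without overlap and bait length by -0.00952. Before position 68, direct joins differed by -0.0583, insertions by -2.56, microhomology by 2.61 without overlap and microhomology length by -0.111. At 75 or later, microhomology, insertions and microhomology length differed by -1.25, 0.406 and 0.0213; with the A69 form alone by -1.79 and 0.617 for the first 2, and with the T70 form alone by -1.54, 1.48 and 0.192. With the bait extended, microhomology and insertions differed by 1.41 and -1.43, and after thinning by 3.50 and -3.56, with overlap each time. Among joins without insertion the microhomology share differed by 0.550. The deletional share differed by -0.123 after thinning and the share outside the core by 0.0394 without long gaps. Within the first run, 1 library each, the differences were -0.890 for direct joins, -0.466 for the deletional share, 0.183 outside the core, -0.455 between the windows, -0.00482 for microhomology length and -0.967 for bait length; within the second, direct joins differed by 1.23, microhomology length by -0.0515 and the deletional share by 0.458.

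Leaving out 1 library gave 6.21 to 16.1 for Sα, -15.0 to -5.64 for other chromosomes, 1.38 to 3.71 for the bait window, -0.297 to -0.134 between the windows, 0.264 to 0.962 for direct joins, 2.38 to 4.17 for microhomology, -5.13 to -3.03 for insertions, -0.0468 to -0.0170 for microhomology length, -0.0278 to 0.422 for the deletional share, -0.154 to 0.136 outside the core and -2.11 to -1.43 for bait length.

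The 9 bait ends became 4 without a trend in the variance, 4 with the bait extended and 58 with substituted reads left out, and 7 to 13 without 1 library. The 2 Sα bins became 1 with no run term, 4 with a pseudocount of 5, 1 with no filter, 0 without the trend (limma; 9 at an unadjusted p under 0.05 in the reported fit), 1 with 500 bp bins and 0 to 4 without 1 library. The 4 joint classes became 2 with the XLF-/- libraries added, 1 without the trend, 2 with the bait extended and 2 to 6 without 1 library. The 18 bins between the bait forms became 37 of 69 with no filter and 14 to 20 without 1 library. At a minimum share of 1%, 5 positions held a substitution instead of 2.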
